A study of Mus musculus with 30 samples.

Results

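The 7 sirtuin genes, Parp1 and Cd38 encode the main enzymes that use up NAD in mammalian cells, and their transcripts are described here in mouse heart. They were chosen by name, and all 9 were found among the 13575 genes of the deposited expression table. The series concerns the REV-ERB nuclear receptors, which act as repressors in the circadian clock, and of its 30 samples the 6 RNA libraries were used. The knockout hearts carry the label CM-RevDKO, for loss of REV-ERBα and REV-ERBβ in cardiomyocytes (3 libraries), and the control hearts the label RevFloxed control (3 libraries). Both came from mice aged 2 months with the atria trimmed, and the tissue was taken at ZT10 (zeitgeber time, hours since lights on). Per the labels, Cre is driven by the promoter of alpha myosin heavy chain, a cardiomyocyte gene, so other heart cell types keep both receptors by design. Effects of Cre and of receptor loss cannot be told apart if the controls lack Cre. Whether each replicate is its own animal is not stated. The p-values therefore measure only the spread between these samples.

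NAD is best known as an electron carrier, but several enzyme families cleave it and release nicotinamide. Sirtuins use it to remove acetyl and longer acyl groups from lysines, PARP enzymes use it to attach ADP-ribose to proteins, most of all after DNA damage, and CD38 hydrolyses it, largely at the cell surface. Nicotinamide is turned back into NAD by the salvage pathway, whose rate-limiting enzyme, NAMPT, is a known clock output. In heart, SIRT3 is studied as the main deacetylase of mitochondrial enzymes, and SIRT1, SIRT6 and PARP1 for their roles in stress and hypertrophy.

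Clock transcription factors bind a few short DNA motifs, and the 250 bases before each RefSeq start used here for the members were searched for these on both strands. RefSeq promoters of GRCm38.p6, which is mm10, were found for 9 of 9 members, with 11 starts in all. The Sirt4 window (chr5:115484298-115484547, minus strand) lies inside the annotated gene, which ends at 115490264, so the bases before that end were not searched. Of the Sirt6 windows (minus strand), chr10:81627567-81627816 lies largely and chr10:81627323-81627572 wholly inside the gene, which ends at 81627792. Few bases before that end were therefore searched. The ROR element, which REV-ERB binds, was searched as the nuclear receptor core AGGTCA directly preceded by T, and before that by any base and AA or AT. The core was also searched by itself. A ROR element of this form occurred in 0.320% of 32841 promoters, and the AGGTCA core in 14.0%. Sirt5 was the single member with either, and the promoter of Nampt, the salvage enzyme, holds 1 AGGTCA core. The E-box CACGTG, bound by CLOCK and BMAL1, occurred in 6.02% of promoters and in those of Sirt1 and Parp1. The D-box, bound by E4BP4 and its PAR bZIP relatives and spelled TTACGTAA or TTATGTAA, occurred in 0.932% of promoters and in none of the members. A match is a string of letters and does not show binding, and a promoter without one may hold other forms of the motif. The sequences that follow are those with matches, shown so that the levels of Sirt5, Sirt1 and Parp1 can be read beside them, and capitals mark the motifs.

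In Sirt5 the 104 bases before the whole annotated gene (chr13:43365285-43365388, plus strand) hold the ROR element, read on the other strand as AAATAGGTCA, and then a separate AGGTCA on the gene's strand. They lie 196 to 187 and 164 to 159 bases before the RefSeq start used here, which is inside the annotated gene.
Sirt5: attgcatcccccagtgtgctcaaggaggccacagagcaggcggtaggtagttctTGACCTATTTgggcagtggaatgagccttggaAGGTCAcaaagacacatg
In Sirt1 the 250 bases before the start (chr10:63339036-63339285, minus strand, written along the gene) hold a pair of E-boxes, 115 to 110 and 43 to 38 bases before the start.
Sirt1: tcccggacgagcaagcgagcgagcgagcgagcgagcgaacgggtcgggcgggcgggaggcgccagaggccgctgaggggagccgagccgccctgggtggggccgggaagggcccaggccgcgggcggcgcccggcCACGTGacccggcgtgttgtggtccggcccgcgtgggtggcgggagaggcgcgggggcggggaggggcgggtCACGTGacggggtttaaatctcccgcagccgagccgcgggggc
In Parp1 the 250 bases before the start (chr1:180568641-180568890, plus strand) hold 1 E-box, 49 to 44 bases before the start.
Parp1: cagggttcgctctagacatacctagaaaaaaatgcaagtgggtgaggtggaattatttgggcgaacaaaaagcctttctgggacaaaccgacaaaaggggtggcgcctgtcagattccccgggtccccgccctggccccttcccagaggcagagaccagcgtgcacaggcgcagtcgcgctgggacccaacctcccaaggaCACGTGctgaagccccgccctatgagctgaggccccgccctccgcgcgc

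The libraries were of like size, with summed values of 678722 to 712158 and 11967 to 12395 genes at 1 FPKM or more. FPKM count mapped fragments per length of transcript and relative to all fragments of the library. Sequencing depth is unknown, so no counting interval is given. Nr1d1, one of the targeted genes, had 55.6, 47.4 and 47.9 FPKM in the libraries labelled CM-RevDKO, against 23.9, 22.6 and 15.0 FPKM in the controls. Nr1d2, the other, had 28.8, 26.6 and 26.7 FPKM, against 40.3, 30.6 and 36.3 FPKM. In the limma fit described below, Nr1d1 was called (log2 1.28, adjusted p = 0.0124) and Nr1d2 was not (log2 -0.36, adjusted p = 0.175). The first goes against the label, but which exons were deleted is not stated in the sources used here, and a value per gene need not reflect them. Every direction below rests on the labels. The cardiomyocyte genes Myh6, Tnnt2, Actc1, Ryr2, Pln and Myl2 had sums between 21905 and 24566 FPKM in the libraries labelled CM-RevDKO. In the controls the sums lay between 21606 and 23312 FPKM. These like sums hide opposite differences, with no overlap for 4 of the 6 genes (23.1% of all genes tested). Myh6 (2983 to 3815 against 4285 to 4549 FPKM) and Pln (1380 to 1721 against 2174 to 2265 FPKM) were lower. Tnnt2 (5969 to 6535 against 4769 to 5095 FPKM) and Myl2 (7995 to 8588 against 6530 to 7193 FPKM) were higher. Of the 6 genes 0 were called. Other features set the libraries labelled CM-RevDKO, or some of them, apart. The atrial markers Myl7, Myl4, Sln, Bmp10 and Dkk3 summed to 175 to 675 FPKM there, highest in replicate 1, against 65.2 to 124 FPKM in the controls. These sums did not overlap. Of the 4 markers tested 0 were called, and 3 did not overlap between the groups (23.1% of all genes tested). Dkk3 overlapped (4.07 to 12.3 against 2.94 to 11.2 FPKM), and Bmp10, not tested, was at 0 in every library but CM-RevDKO replicate 1. The microRNA feature mmu-mir-689-2 had 3683 and 1813 FPKM in CM-RevDKO replicates 1 and 2, against 42294 FPKM in replicate 3 and 25204 to 33903 FPKM in the controls. Adipocyte markers (Adipoq, Plin1 and Cidec, 3 of 4 measured) summed to between 3.23 and 20.7 FPKM, high in CM-RevDKO replicates 1 and 2, against 3.58 to 4.05 FPKM in the controls. Erythroid markers (Hba-a1, Hbb-b1 and Alas2) summed to between 5015 and 5782 FPKM, against 3033 to 5149 FPKM. The part of these features in the called genes named below was not tested beyond the fits with libraries left out and with an atrial covariate. The covariate was built from Myl7, Myl4 and Sln, each higher in every library labelled CM-RevDKO than in any control. It therefore follows the group, and a fit with it cannot tell atrial content and group apart. In bulk tissue, fewer cells of a type and less RNA per cell cannot be told apart.

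None of the 9 genes passed the test for a difference between the libraries labelled CM-RevDKO and the controls. Each was tested with limma on log2(FPKM + 1) together with all 13256 genes averaging 0.5 FPKM or more, with Benjamini-Hochberg adjustment at 0.05. All 9 passed this filter, 0 were called, and 0 had an unadjusted p under 0.05. Of all genes tested 332 were called, or 2.50%, and 2206 genes, or 16.6%, had an unadjusted p under 0.05. Fold changes were positive for 4 members and negative for 5, with a median of -0.01 beside 0.02 over all genes tested, and a median size of 0.14 beside 0.16. No member was called in any of the alternative settings, where the smallest adjusted p was 0.312. The 95% intervals of the members reached at most from -0.71, for Sirt2, to 0.56, for Sirt7, on the log2 scale. To be called, the estimate of a member would have had to reach 0.44, for Parp1, to 1.08, for Sirt1, given its own spread. These sizes apply to the estimate, and a true change within a member's interval is not excluded.

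**Figure D1:**
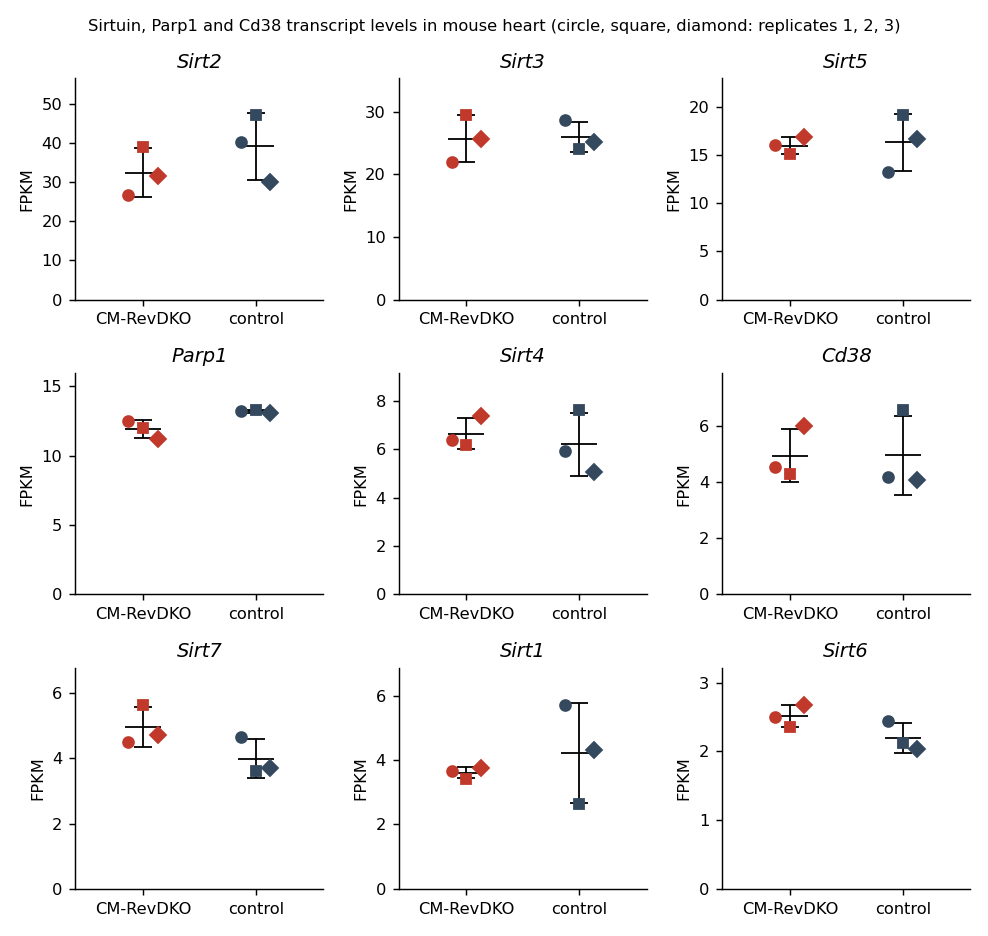
FPKM of each member in each library, 1 panel per gene ordered by mean level, with CM-RevDKO left and control right; points are libraries, horizontal bars are means and whiskers are SD (n = 3). The groups overlap in every panel but that of Parp1, where the libraries labelled CM-RevDKO sit between 11.2 and 12.5 FPKM and the controls between 13.1 and 13.3 FPKM.

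SIRT1, SIRT6 and SIRT7 are the sirtuins found mainly in the nucleus. Sirt1 (ENSMUSG00000020063, chromosome 10, 63319005 to 63339035, mm10) encodes the deacetylase of histones, p53, FOXO factors and PGC-1α, which also binds CLOCK. It had 3.65, 3.41 and 3.76 FPKM in the libraries labelled CM-RevDKO, against 5.72, 2.62 and 4.32 FPKM in the controls. The first group lay inside the range of the second, where the highest library had 2.19 times the lowest. The log2 fold change was -0.14 (SE 0.21, 95% interval -0.64 to 0.36, limma adjusted p = 0.808). The interval thus spans a fold of 0.64 to 1.29, and the sign turned without control replicate 1 (0.07).

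Sirt6 (ENSMUSG00000034748, chromosome 10, 81621787 to 81627792) encodes a chromatin-bound histone H3 deacetylase that acts on glycolytic and repair genes. It had 2.50, 2.36 and 2.68 FPKM in the libraries labelled CM-RevDKO, against 2.44, 2.12 and 2.03 FPKM in the controls. A single control library, replicate 1, reached into the range of the first group. The log2 fold change was 0.14 (SE 0.12, interval -0.14 to 0.41, adjusted p = 0.615). Sirt7 (ENSMUSG00000025138, chromosome 11, 120618371 to 120625014), which encodes a sirtuin enriched in the nucleolus, had the smallest p of the 9. Its levels were 4.51, 5.65 and 4.72 FPKM in the libraries labelled CM-RevDKO, against 4.67, 3.61 and 3.71 FPKM in the controls. Again control replicate 1 overlapped the first group, whose mean was 4.96 ± 0.608 FPKM beside 3.99 ± 0.586 FPKM (SD, n = 3). The log2 fold change of 0.26 (SE 0.13, interval -0.05 to 0.56) did not pass the test (adjusted p = 0.377, unadjusted p = 0.0858).

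SIRT2 is the sirtuin of the cytosol, a deacetylase of tubulin and of metabolic enzymes. Sirt2 (ENSMUSG00000015149, chromosome 7, 28766752 to 28788665) had 26.6, 39.0 and 31.4 FPKM in the libraries labelled CM-RevDKO, against 40.3, 47.0 and 30.0 FPKM in the controls. The lowest control library lay below 2 of the 3 libraries of the first group, so the groups overlapped. The means were 32.3 ± 6.26 and 39.1 ± 8.54 FPKM (SD, n = 3), and the log2 fold change was -0.26 (SE 0.19, interval -0.71 to 0.19, adjusted p = 0.549). A covariate for atrial transcripts turned it to 0.20.

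SIRT3, SIRT4 and SIRT5 are found in mitochondria. Sirt3 (ENSMUSG00000025486, chromosome 7, 140863663 to 140882309) encodes their main deacetylase, and it had 22.03, 29.38 and 25.63 FPKM in the libraries labelled CM-RevDKO, against 28.62, 24.02 and 25.19 FPKM in the controls. Both the lowest and the highest library of the 6 belonged to the first group. Its log2 fold change was -0.02 (SE 0.13, interval -0.32 to 0.28, adjusted p = 0.964), which bounds a change to folds of 0.80 to 1.21. Sirt4 (ENSMUSG00000029524, chromosome 5, 115478006 to 115490264) encodes an ADP-ribosyltransferase and lipoamidase that restrains glutamate dehydrogenase and pyruvate dehydrogenase. It had 6.36, 6.18 and 7.39 FPKM in the libraries labelled CM-RevDKO, against 5.93, 7.62 and 5.04 FPKM in the controls, which held both its extremes. The log2 fold change was 0.10 (SE 0.15, interval -0.25 to 0.45, adjusted p = 0.796).

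Sirt5 (ENSMUSG00000054021, chromosome 13, 43365389 to 43395203) encodes the enzyme that removes succinyl, malonyl and glutaryl groups. With the ROR element shown above before its start, it had 16.0, 15.1 and 16.8 FPKM in the libraries labelled CM-RevDKO, against 13.2, 19.1 and 16.6 FPKM in the controls. The first group lay inside the range of the controls. The log2 fold change was -0.01 (SE 0.14, interval -0.33 to 0.31, adjusted p = 0.975), a fold between 0.79 and 1.24. A single circadian time was sampled, so a changed rhythm around a like level at ZT10 would not be seen.

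Parp1 (ENSMUSG00000026496, chromosome 1, 180568891 to 180600999) encodes the nuclear enzyme that senses DNA breaks and builds chains of ADP-ribose. It had 12.5, 12.0 and 11.2 FPKM in the libraries labelled CM-RevDKO, against 13.2, 13.3 and 13.1 FPKM in the controls. Every library of the first group lay below every control, which made Parp1 the 1 member of 9 whose groups did not overlap; this was so for 23.1% of all genes tested. The means were 11.9 ± 0.641 and 13.2 ± 0.0681 FPKM (SD, n = 3), a level of 90.1% of the control. The log2 fold change of -0.14 (SE 0.09, interval -0.34 to 0.06) did not pass the test (adjusted p = 0.477). Its SE was smaller than that of all but 3.08% of the genes tested.

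Cd38 (ENSMUSG00000029084, chromosome 5, 43868809 to 43912374) encodes the ecto-enzyme that hydrolyses NAD and makes cyclic ADP-ribose, and is abundant on immune and some endothelial cells. It had 4.55, 4.30 and 6.03 FPKM in the libraries labelled CM-RevDKO, against 4.21, 6.59 and 4.09 FPKM in the controls. In each group a pair of libraries stood close together and the remaining 1 was higher. The means were 4.96 ± 0.933 and 4.96 ± 1.41 FPKM (SD, n = 3), with a log2 fold change of 0.01 (SE 0.19, interval -0.43 to 0.45, adjusted p = 0.985). Of the cell types known to carry CD38, B cell transcripts were low: Cd79a and Cd79b, 2 of 4 markers measured, had sums between 2.70 and 3.82 FPKM in the libraries labelled CM-RevDKO and between 1.51 and 3.76 FPKM in the controls. The 5 macrophage markers Emr1, Csf1r, C1qa, Cd68 and Cd163 summed to 63.7 to 115 FPKM and 71.0 to 82.7 FPKM. The 4 endothelial markers Pecam1, Cdh5, Kdr and Tie1 summed to 124 to 156 FPKM and 114 to 138 FPKM. None of these markers was listed at 0 in a library. Of the 4 T and NK cell markers Cd3e, Cd3d, Cd3g and Nkg7, 0 were among the genes tested. Which cells the Cd38 reads came from was not tested.

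**Figure D2:**
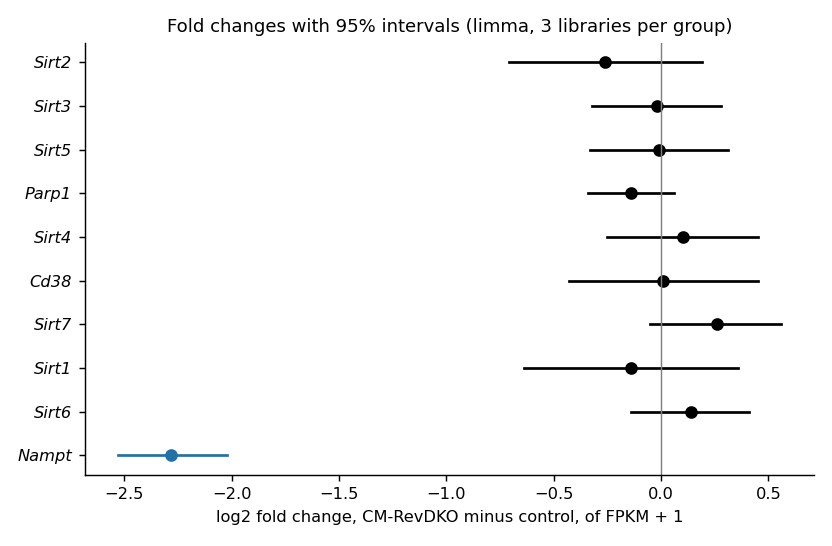
Log2 fold changes of FPKM + 1, CM-RevDKO minus control, for the 9 members ordered by mean level and for Nampt; points are limma estimates and lines are 95% intervals (3 libraries per group). The intervals of all 9 members cross 0 and lie between -0.71 and 0.56, and that of Nampt lies between -2.53 and -2.02.

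Levels differed far more between the members than between the groups. Since FPKM are per length, they can be ranked within a library: the mean over 6 libraries was 35.7 FPKM for Sirt2, 25.8 for Sirt3, 16.1 for Sirt5 and 12.5 for Parp1. Below these came Sirt4 at 6.42 FPKM, Cd38 at 4.96, Sirt7 at 4.48, Sirt1 at 3.91 and Sirt6 at 2.36. The top 5 of this order and the bottom place held in both groups. From Sirt2 to Sirt4, each gene was above the next in 6 of 6 libraries, and so was Sirt4 above Cd38 and Sirt1 above Sirt6. Cd38 exceeded Sirt7 in 4 of 6 libraries and Sirt7 exceeded Sirt1 in 4 of 6, so these 3 neighbours were not separated. The mean level of Sirt2 was above those of 89.6% of genes in the table and that of Sirt6 above those of 26.7%.

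The members did not vary as a block across libraries. Control replicate 2 had the highest level of 5 members (Sirt2, Sirt4, Sirt5, Parp1 and Cd38) and the lowest of 2 (Sirt1 and Sirt7). The SD was larger among the controls for 6 members and larger among the libraries labelled CM-RevDKO for 3. Sirt1 varied the most over the 6 libraries, and Parp1, whose highest library had 1.18 times its lowest, varied the least.

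The sirtuin transcripts were also added up by the compartment where their proteins mainly reside, with no test of the shares. The 3 mitochondrial sirtuins summed to 44.3, 50.7 and 49.8 FPKM in the libraries labelled CM-RevDKO, against 47.7, 50.7 and 46.9 FPKM in the controls. They held 50.1% to 54.4% of all sirtuin transcripts in the first group and 47.3% to 53.9% in the second. The 3 nuclear sirtuins summed to 10.7, 11.4 and 11.1 FPKM, against 12.8, 8.34 and 10.1 FPKM, and held 11.3% to 13.1% in the first group and 7.87% to 12.7% in the second. Cytosolic Sirt2 held 32.6% to 38.6% in the libraries labelled CM-RevDKO and 34.5% to 44.3% in the controls. The ranges of all 3 shares overlapped between the groups. All 7 together came to 91.7 ± 9.78 FPKM in the first group and 98.0 ± 9.87 FPKM in the second (SD, n = 3). The difference of -6.27 FPKM was smaller than either SD but rested on single libraries: it was -1.22 FPKM without CM-RevDKO replicate 1 and -2.24 FPKM without control replicate 2, against -10.99 FPKM without CM-RevDKO replicate 2 and -11.77 FPKM without control replicate 3. Scaled without the mitochondrially encoded genes it was -10.56 FPKM.

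**Figure D3:**
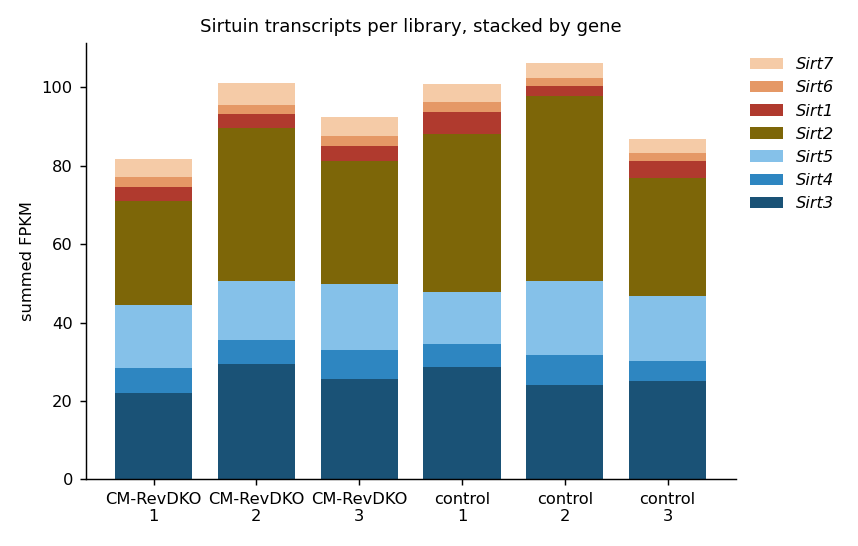
Summed FPKM of the 7 sirtuin genes in each library, stacked by gene, with the mitochondrial sirtuins (Sirt3, Sirt4, Sirt5) at the bottom, Sirt2 above them and the nuclear ones on top. The mitochondrial stack reaches between 44.3 and 50.7 FPKM in the libraries labelled CM-RevDKO and between 46.9 and 50.7 FPKM in the controls.

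Nampt (ENSMUSG00000020572, chromosome 12, 32820335 to 32853369), on the supply side of the pathway, fell. It had 10.5, 10.9 and 10.6 FPKM in the libraries labelled CM-RevDKO, against 58.0, 61.3 and 48.5 FPKM in the controls. Set against the sirtuins of the same library, there were 0.108 to 0.129 Nampt FPKM per sirtuin FPKM in the first group and 0.558 to 0.578 in the second, with no overlap. On the log2 scale it fell by 2.28 (SE 0.11, limma adjusted p = 1.40e-04), and the call held in all 16 alternative settings. Naprt1 (now Naprt), which starts NAD synthesis from nicotinic acid, had 4.31, 3.32 and 3.36 FPKM, against 7.06, 6.75 and 7.12 FPKM (adjusted p = 0.0170). It was the other of 2 members that fell among 6 measured NAD synthesis genes, and 0 rose. Their median log2 fold change was -0.38. Naprt1 lost its call without CM-RevDKO replicate 2 or without any 1 of the controls (adjusted p up to 0.0801). It also lost it with the replicate block (limma adjusted p = 0.0666). The call was lost, too, with a covariate for atrial transcripts (log2 -1.02, adjusted p = 0.0987) and without CM-RevDKO replicates 1 and 2 (log2 -0.87). In both of these fits its fold change was larger than the -0.78 of all libraries. The other 4 synthesis genes, Nmnat1, Nmnat3, Nadsyn1 and Itgb1bp3 (now Nmrk2), had adjusted p of 0.328 to 0.616.

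The lists beside the members held 64 distinct genes. They covered NAD use, ADP-ribose removal, NAD synthesis and NAD phosphorylation, and also SIRT1 modifiers, PARP1 repair partners and substrates of mitochondrial sirtuins. Of the 64 genes, 1 was called higher and 5 lower in the libraries labelled CM-RevDKO (over all genes tested 1.26% rose and 1.24% fell). The lists were chosen with earlier results of these data known, so these counts are no test of the lists as sets. Idh2 and Acss1, among the lower ones, are substrates of mitochondrial sirtuins. Among 14 other PARP family enzymes 0 were called, and their median log2 fold change was 0.01. Tiparp, the PARP induced through the dioxin receptor, had the smallest p of these, with 2.56, 2.68 and 2.75 FPKM in the libraries labelled CM-RevDKO, against 3.74, 3.32 and 3.95 FPKM in the controls (log2 -0.35, adjusted p = 0.168). Parp8, a mono-ADP-ribosyltransferase, had 4.63, 4.13 and 4.46 FPKM, against 5.65, 5.47 and 5.56 FPKM (log2 -0.28, adjusted p = 0.194). The groups of both genes did not overlap, yet neither passed the test. Among 7 measured partners of PARP1 in single-strand break repair, again 0 were called (median -0.09). Lig3, the DNA ligase of this repair, averaged 3.69 FPKM in the libraries labelled CM-RevDKO and 4.70 FPKM in the controls (adjusted p = 0.239). Aptx, which clears aborted ligations, averaged 3.84 and 3.15 FPKM (adjusted p = 0.614).

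Of 5 measured NAD glycohydrolases and ecto-ADP-ribosyltransferases, 1 fell, Art3 (median of the list -0.35). Art3 is anchored at the cell surface and lacks residues that active members of its family share, so that it is not known to use NAD. It had 64.8, 92.9 and 94.4 FPKM in the libraries labelled CM-RevDKO, against 148, 176 and 142 FPKM in the controls. The groups were far apart and the log2 fold change was -0.89 (SE 0.16, adjusted p = 0.0382). The call ended without CM-RevDKO replicate 2 or without any 1 of the controls (adjusted p up to 0.124). Art3 also lost it with a covariate for atrial transcripts, at a log2 fold change of -0.41. The call ended as well without the intensity trend (limma adjusted p = 0.0605) and with the replicate block (limma adjusted p = 0.0704). Without CM-RevDKO replicates 1 and 2 its log2 fold change was -0.71. Bst1, the closest relative of Cd38, had 0.914, 1.78 and 1.46 FPKM in the libraries labelled CM-RevDKO, against 1.08, 1.13 and 1.22 FPKM in the controls (adjusted p = 0.750).

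Of 8 measured genes that remove ADP-ribose or break it down, 1 rose, Adprhl1 (median of the list 0.06). Adprhl1 is a heart and muscle relative of the ADP-ribosylhydrolases that is thought to lack their activity. It had 597, 599 and 489 FPKM in the libraries labelled CM-RevDKO, against 257, 224 and 237 FPKM in the controls. On the log2 scale it rose by 1.22 (SE 0.11, adjusted p = 0.00218). The call survived the loss of any 1 library (adjusted p up to 0.0185), but not a covariate for atrial transcripts (log2 1.10, adjusted p = 0.104) or the loss of CM-RevDKO replicates 1 and 2 (log2 1.03, adjusted p = 0.0588). Parg, the hydrolase that takes apart the chains PARP1 builds, was among those not called (7.50, 5.14 and 4.97 FPKM, against 5.82, 4.02 and 5.12 FPKM, adjusted p = 0.644). Macrod1 came nearest to a call among these. It had 111, 111 and 109 FPKM in the libraries labelled CM-RevDKO, against 142, 160 and 143 FPKM in the controls (log2 -0.42, adjusted p = 0.0549).

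Among 7 genes of NAD phosphorylation and nicotinamide removal and 5 of SIRT1 modifiers, 0 were called, with medians of -0.11 and -0.08. Nudt13, a mitochondrial NADH pyrophosphatase, averaged 11.6 FPKM in the libraries labelled CM-RevDKO and 8.66 FPKM in the controls (adjusted p = 0.158). The mitochondrial NAD kinase Nadk2, listed as 1110020G09Rik, averaged 15.3 and 19.4 FPKM (adjusted p = 0.178). Rps19bp1, which encodes the SIRT1 activator AROS, averaged 9.36 and 8.23 FPKM (adjusted p = 0.680), and Usp22, a deubiquitinase that stabilises SIRT1, averaged 7.31 and 7.87 FPKM (adjusted p = 0.750).

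Of 12 measured enzymes that mitochondrial sirtuins are known to act on, 2 were called lower at the transcript level and 0 higher. Over all genes tested 1.24% fell and 1.26% rose. This list, too, was chosen with earlier results of these data known, so the count is no test of it as a set. The median log2 fold change of the 12 was -0.09. Idh2, the NADP-linked isocitrate dehydrogenase that SIRT3 deacetylates, had 408, 517 and 465 FPKM in the libraries labelled CM-RevDKO, against 690, 740 and 637 FPKM in the controls (log2 -0.58, adjusted p = 0.0464). Acss1, the mitochondrial acetyl-CoA synthetase and another SIRT3 substrate, had 70.5, 79.6 and 66.9 FPKM, against 108, 115 and 98.0 FPKM (log2 -0.56, adjusted p = 0.0410). The groups of both genes did not overlap, as was so for 23.1% of all genes tested. Both calls ended with any 1 library left out, at adjusted p up to 0.157 for Idh2 and 0.144 for Acss1. They also ended without the intensity trend (limma adjusted p = 0.0822 for Idh2 and 0.0721 for Acss1) and with the replicate block (0.0923 and 0.0704). With a covariate for atrial transcripts the log2 fold change was -0.31 for Idh2 (adjusted p = 0.651) and -0.45 for Acss1 (adjusted p = 0.572). Without CM-RevDKO replicates 1 and 2 it was -0.56 for Idh2 and -0.67 for Acss1.

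**Figure D4:**
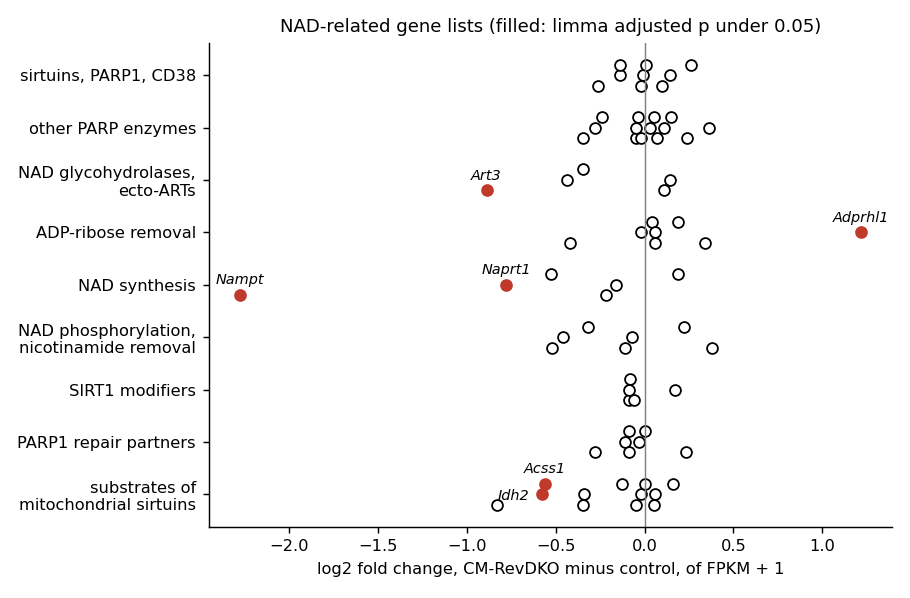
Log2 fold changes of FPKM + 1, CM-RevDKO minus control, for the 9 members and for 8 lists of genes related to NAD, sirtuins or PARP1. Each point is a gene, filled where the limma adjusted p was under 0.05. The 6 filled points are Nampt, Naprt1, Art3, Acss1 and Idh2 on the negative side and Adprhl1 on the positive side, and no member is filled.

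Several members share their start region with another gene, and reads of overlapping genes cannot be told apart without strand. Of 9 annotated genes whose spans overlap a member, Ric8 (now Ric8a) was the 1 with values. It overlaps Sirt3 by 69 bases at the 3' ends, and averaged 5.73 FPKM in the libraries labelled CM-RevDKO and 6.69 FPKM in the controls. Within 200 bases of a member's span, a protein-coding neighbour was annotated for 4 members; these were chosen after their values were seen. Psmd13, a proteasome subunit gene 84 bases away from Sirt3 and read the opposite way, had 27.1, 28.2 and 28.6 FPKM, against 22.9, 25.7 and 23.4 FPKM (adjusted p = 0.292). Nfkbib, an NF-κB inhibitor gene 107 bases from Sirt2 and also read the opposite way, had 14.0, 13.4 and 15.6 FPKM, against 12.4, 13.5 and 12.9 FPKM (adjusted p = 0.521). Ankrd24, 28 bases from Sirt6, had 2.70, 3.45 and 2.67 FPKM, against 4.11, 4.54 and 3.73 FPKM (log2 -0.38, adjusted p = 0.185), whereas that of Sirt6 was 0.14. Mafg lies 102 bases upstream of Sirt7 on the same strand and had a log2 fold change of 0.03 (adjusted p = 0.913). None of these neighbours passed the test.

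The genes whose profiles over the 6 libraries were most like that of Sirt7, the member with the smallest p, were sought among 7255 genes averaging 5 FPKM or more. The measure was the root mean square difference of log2(FPKM + 1) after centring each gene. The closest were Strn, Zswim7, Gtpbp3, Ntn4 and Atp5h, at 0.034 to 0.055. None of these 5 was called, with log2 fold changes of 0.20 to 0.32.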

How the data were processed

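RNA was measured in 6 mouse heart libraries of 2 groups, 3 each. The submitters' processing notes name HISAT2, StringTie and mm10 without versions. Annotation and strand use are not stated in the sources used here. The values the authors deposited were read as FPKM, which StringTie reports; the header names no unit, and TPM cannot be told apart. Depth is unknown and limits the precision. Each of the 6 columns was tied to a library by its name; the other 24 samples were not analysed here.

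Values were analysed as log2(FPKM + 1), which understates the changes of low genes. Genes averaging 0.5 FPKM or more entered a limma fit (version 3.58.1, R 4.3.3) with group alone as a term and a trended eBayes prior, and p-values were adjusted by Benjamini-Hochberg over all of them. The procedure was tested on simulated data. Symbols are those of the table; coordinates and promoters are from RefSeq on GRCm38.p6.

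The members and lists were chosen with earlier results of these data known. Named beside the 9 members were Nampt and, from each list, the genes past the test or else the 2 with the smallest p, any overlapping gene with values, and the 5 profiles nearest to the member with the smallest p. Parg, Macrod1, Bst1, the close neighbours, the targeted genes and mmu-mir-689-2 lie outside this rule and were chosen after values were seen. Alternatives were a pseudocount of 0.1, other filters and scalings, no trend, a replicate block, an atrial covariate and left-out libraries; scaling to the same sum was added after seeing the data.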

Additional observations from a re-analysis of the deposited data

How the results depend on the processing

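No member was called under any of 16 alternative settings, where each could be fitted; under the filter at a mean of 5 FPKM, Sirt1, Sirt6, Sirt7 and Cd38 were left out. Of all genes tested, 332 were called, 114 to 323 with 1 library left out, 30 with the atrial covariate and 28 without CM-RevDKO replicates 1 and 2, where a lone library is assumed to vary like the controls. Scaled without the mitochondrially encoded genes, 118 were higher and 212 lower, beside 167 and 165, and scaled to the same sum 138 and 192. Of the 64 genes in the other NAD lists 6 were called. Under quantile normalization 8 were called, and 7 when scaled without the mitochondrially encoded genes or to the same sum. The filter at a mean of 5 FPKM left 46 of them, of which 7 were called. The count was 2 to 4 with 1 library left out and 3 without the intensity trend. With the atrial covariate 1 was called, Nampt, whose call also held without CM-RevDKO replicates 1 and 2. Fewer samples or a further term leave less to estimate the spread from; beyond that the cause was not tested. Same-numbered libraries did not deviate together (correlations of -0.04, -0.06 and 0.09 over 13256 genes, with 1 of 3 libraries in each group closest to its own number). These values show no strong shared effect of the number, but with 3 libraries per group they cannot show that the samples were not paired. With the replicate block 115 genes of the table, 2 list genes and 0 members were called. Some fold changes that were not called turned sign: Cd38 was -0.04 when scaled without the mitochondrially encoded genes and -0.02 when scaled to the same sum; Sirt2, Sirt3 and Sirt5 were 0.20, 0.16 and 0.09 with the atrial covariate, beside -0.26, -0.02 and -0.01; Sirt5 was 0.06 and Rps19bp1 -0.06 without CM-RevDKO replicates 1 and 2. With 1 library left out, the log2 fold change ran from -0.38 to 0.07 for Sirt1, -0.43 to -0.12 for Sirt2, -0.12 to 0.08 for Sirt3, -0.02 to 0.24 for Sirt4, -0.15 to 0.10 for Sirt5, -0.11 to 0.20 for Cd38, 0.01 to 0.29 for Rps19bp1 and -0.15 to 0.00 for Usp22.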
